A study of Equus caballus with 4 samples.

Results

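The mRNA of 10 genes of nitric oxide (NO), arginine and cyclic GMP (cGMP) metabolism was measured in differentiating equine satellite cells (ESC) with and without β-hydroxy-β-methylbutyrate (HMB). The genes were chosen by name: the NO synthases *NOS1*, *NOS2* and *NOS3*, the arginases *ARG1* and *ARG2*, *ASS1*, *ASL*, *DDAH1*, *GUCY1A3* and *GUCY1B3*. They had 29 of the 43603 probes of the array, which carried 14606 gene symbols in all. The gene name column of the array files gave 7 of the genes, with 14 probes. The others were found outside that column: *NOS2*, written there as INOS, by its synonym, and *NOS1* and *ASL* by their descriptions.

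Satellite cells are the stem cells of skeletal muscle, and those used came from the semitendinosus muscle of young colts, after a preplating step meant to lower the number of fibroblasts. HMB, which the body makes from leucine, was added to cells in differentiation medium for 24 h, up to the third day of differentiation, and control cells stayed in the same medium without it. The amount of HMB is 50 µg in the sample labels and 50 µM in the methods, and the description field of each sample names another treatment, GO, so the titles and source names were followed. HMB-treated cells (Cy5) and control cells (Cy3) shared each of 4 arrays (*n* 4), labelled as biological replicates, and the dyes were never swapped, so that a dye preference of a probe cannot be told apart from an effect of HMB. The sources do not say which colt's cells were on which array.

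NO is made from arginine by NO synthases, and it activates soluble guanylate cyclase, which makes cGMP. Arginases use the same arginine to make urea and ornithine, while argininosuccinate synthase and lyase make arginine again from citrulline, the other product of NO synthases. In skeletal muscle the neuronal enzyme NOS1 is held at the membrane of the fibre, NOS3 is known from blood vessels, and NOS2 is the inducible form, which inflammatory cytokines switch on in many cell types.

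Values are log2 ratios of HMB-treated over control cells, made from the deposited ratios, so that a negative value stands for less mRNA in HMB-treated cells. Testing was limited to probes with 1 channel, the same one throughout, that the software marked as well above background on each of the 4 arrays. limma set the mean ratio of each of these 27384 probes against 0, P values were adjusted by Benjamini and Hochberg's method across them, and the threshold was 0.05. Of the 29 probes, 16 were tested and 13 were not. Errors are SD over arrays, or the standard error (SE) of limma where named, and with *n* 4 every value has limited precision.

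Of the 10 genes, *NOS2* was down-regulated and *ARG2* up-regulated in HMB-treated cells. Another 4 genes, *ASS1*, *ASL*, *DDAH1* and *GUCY1B3*, were tested and did not pass, and *NOS1*, *NOS3*, *ARG1* and *GUCY1A3* were too dim to be tested. By probe, 11 of the 16 tested passed the threshold, 5 lower (all of *NOS2*) and 6 higher (all of *ARG2*). Over all tested probes 6257 (22.8%) passed, 3071 higher (11.2%) and 3186 lower (11.6%). The member probes are not independent of each other, since the 5 of *NOS2* share most of their bases, as do 5 of the 6 of *ARG2*. Counted with 1 probe a gene, 2 of 6 genes passed, beside 2201 of 9738 genes (22.6%) on the array, and so few genes give no result about the group as a whole. The median of the mean log2 ratios of the 6 genes was -0.33, and that of the 9738 genes was 0.03. In a t-test on each probe alone 10 of the 16 member probes passed, beside 768 probes (2.8%) in all, and 12 of the 16 had the same sign on all arrays, beside 12701 (46.4%). With the names of the gene name column alone, 10 probes were tested and 6 passed. The study itself lists *NOS2*, *ARG2* and *GUCY1A3* among its changed genes on these arrays, so their values are not independent evidence.

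**Figure D1:**
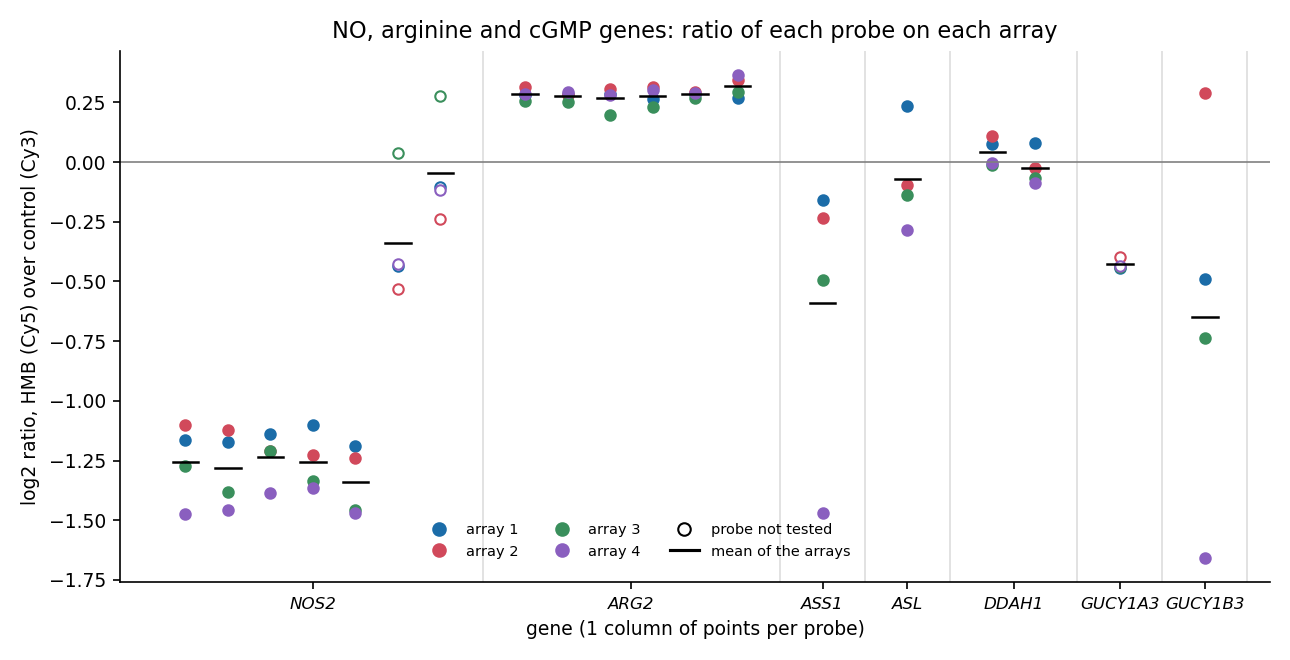
Log2 ratio of HMB-treated (Cy5) over control cells (Cy3) on each of 4 arrays for every probe of the genes with a signal well above background on at least 1 array; filled points are tested probes, open points are probes not tested, and black bars are means. The 5 tested *NOS2* probes lie between -1.48 and -1.10 and the 6 *ARG2* probes between 0.20 and 0.36, while the arrays differ most for *ASS1* and *GUCY1B3*.

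*NOS2* had 13 probes in 5 separate stretches of the gene on the minus strand of chromosome 11 (EquCab1). They are shown because only 1 of the stretches could be tested. The stretch nearest the 3′ end, at chr11:40682617-40682680, held 5 probes that are shifted by single bases and share 56 of their 60 bases, all in capitals in the central 30 bases printed here. The other stretches, 5.23, 8.74, 19.3 and 23.3 kb from it on the genome, held 1, 1, 1 and 5 probes, those of the last overlapping. The first 3 of them are at chr11:40687849-40687908, chr11:40691361-40691420 and chr11:40701907-40702061. The files do not say which stretches are coding.
NOS2, stretch nearest the 3′ end: CTTGTATGTCTCCTTGATGGAGATATTTAT
NOS2, 5.23 kb away: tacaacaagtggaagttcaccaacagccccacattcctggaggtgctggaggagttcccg
NOS2, 8.74 kb away: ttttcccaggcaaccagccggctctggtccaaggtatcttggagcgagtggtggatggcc
NOS2, 19.3 kb away: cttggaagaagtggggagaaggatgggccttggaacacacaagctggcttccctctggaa

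At the stretch nearest the 3′ end, the brightest of the 5 probes gave a processed signal of 328, 296, 299.5 and 273 in control cells on arrays 1 to 4. The same probe gave 149, 128, 129.5 and 104 in HMB-treated cells. All control signals of this probe were above all its HMB signals, but the share of all probes that show this was not counted. The log2 ratios of this probe were -1.14, -1.21, -1.21 and -1.39, with a mean of -1.24 ± 0.11 (SD, *n* 4; SE 0.07), or 2.36-fold more in control cells (limma, adjusted P = 0.000633). Over all 5 probes, the ratio of a single array was between -1.48 and -1.10 and the mean between -1.34 and -1.24. Their SD was between 0.11 and 0.16, so the shift was several times the spread between arrays. The adjusted P of limma was between 0.000633 and 0.000858, and *NOS2* passed on all 5 probes in every setting tried. The highest adjusted P over the settings was 0.0419, in the t-test. Of the 9738 genes, 50 had a lower mean ratio than *NOS2*, and 0.76% had a ratio of larger size. In a sample of many cells, fewer cells that make an mRNA and less of it per cell cannot be told apart, which holds for all values here.

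The 8 probes of the other *NOS2* stretches were not tested. The probe 5.23 kb away was well above background in control cells on 2 arrays and in HMB-treated cells on none. Its log2 ratios were -0.44, -0.53, 0.04 and -0.43, below 0 on 3 of 4 arrays. The probe 19.3 kb away was above background on 2 arrays in each channel. Its log2 ratios were -0.10, -0.24, 0.28 and -0.12, which lie on both sides of 0. At 8.74 kb and 23.3 kb no probe was well above background on any array. The fall in *NOS2* was thus measured by 1 stretch of 64 bases, and the others were too dim to be tested.

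**Figure D2:**
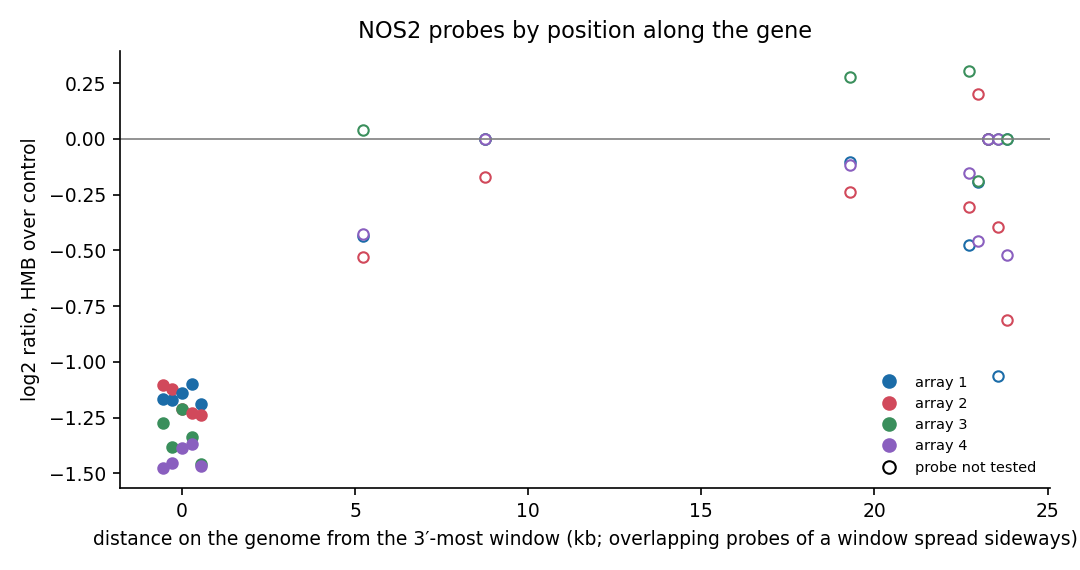
Log2 ratio of HMB-treated over control cells of the 13 *NOS2* probes on each of 4 arrays, against the distance on the genome from the stretch nearest the 3′ end, in kb, with overlapping probes spread sideways. Filled points are the 5 tested probes, none above -1.10, and open points are the 8 probes not tested, of which 2 were well above background on 2 arrays.

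The genes most like *NOS2* over the 4 arrays, out of 9733 genes with a value on each, were found by the Euclidean distance between log2 ratios. They were *CDO1* (distance 0.161), which oxidises cysteine, *IL32* (0.179), a cytokine, and *MYOM2* (0.313), a protein of the sarcomere's M band. *HS6ST2*, which modifies heparan sulphate, and *CFB*, a complement factor, were also among the 5 nearest, but with HMB signals at background on at least 1 array they have only bounds, and no distance or rank is given. The ratios of *CDO1* were -1.15, -1.08, -1.25 and -1.30, and those of *IL32* were -1.06, -1.16, -1.09 and -1.49. Those of *MYOM2* were -0.93, -1.27, -1.42 and -1.47. On signals normalised between arrays *HS6ST2*, whose HMB signal was close to background on every array, was at least 1.68-fold lower in HMB-treated cells. *CFB*, above background on 3 arrays, had a bound no different from its mean ratio, 2.48-fold lower. That value of *CFB* is no floor, since without array 4 its log2 mean was -1.22, smaller in size. All such bounds here were made from the deposited signals after a further normalisation between arrays, and they hold for those signals only. Normexp with its offset of 50 by construction draws ratios of dim probes towards 0. With it the log2 ratios of *HS6ST2* and *CFB* were -0.28 and -0.71. The bounds set the mean signal of the brighter channel against the lowest signal well above background, or the probe's own if higher. They too hold any dye preference. *CDO1*, *IL32* and *MYOM2* passed the test (limma, adjusted P between 0.000659 and 0.00140), which follows from their closeness to *NOS2*. In the t-test on each probe alone *MYOM2* did not pass (adjusted P = 0.0544).

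Markers of myogenic cells were lower in HMB-treated cells on the same arrays. Of 11 markers, 10 were tested and 9 were down-regulated, with a median log2 ratio of -0.82. On the brightest probe of each gene, none of the 9 passed in the t-test on each probe alone. The adjusted P of *MYF5* in that t-test was 0.0507. *MYH3*, the embryonic myosin heavy chain, had a mean of -1.11, *MYF5*, an early myogenic factor, of -1.01, and *DES*, the muscle intermediate filament, of -0.98. The factors *MYOD1*, *MYOG* and *MYF6* had means of -0.46, -0.42 and -0.28, and *MYMK* at -0.27 did not pass. *MYF6* lost its call without each of the arrays, *MYOD1* without array 2, 3 or 4 and *MYOG* without array 2 or 3, with adjusted P of 0.161, 0.0902 and 0.0901 in limma without array 3. When lowess was left out, *MYH3* had a mean of -0.27 and did not pass, or of -0.42 and passed, depending on the centring, and all 9 stayed below 0. The mean over the 10 markers was -0.37, -0.65, -0.86 and -0.95 on arrays 1 to 4. Their summed signal was 126871, 123867, 137710 and 145851 in control cells and 90991, 64373, 56792 and 53994.5 in HMB-treated cells. The largest part of this sum was *MYH3*, with 82936.3, 81650.3, 91965.1 and 99646 in control cells and 58137.9, 41079, 35287.5 and 33671.9 in HMB-treated cells. The mean over the markers and the brightest *NOS2* probe were lowest on array 4 and closest to 0 on array 1, but 2 of the other *NOS2* probes were closest to 0 on array 2. *PAX7*, which defines satellite cells at rest, was not well above background on any array. The part of the myogenic markers in the ratio of *NOS2* was not tested.

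Markers of other cells gave a mixed picture. In the fibroblast list, 7 of 8 genes were tested and 1 passed, *PDGFRA*, a growth factor receptor, with a mean log2 ratio of 1.53. It was 0.90 with normexp and loess, and *PDGFRA* did not pass in the t-test (adjusted P = 0.0775). Of the dimmer probes, 1 of *DCN* passed as higher and 2 of *COL1A2* as lower. The median of that list was -0.10, and its summed signal was 373823, 352548, 382055 and 492776 in control cells and 449926, 311251, 332499 and 330961 in HMB-treated cells. Of the 8 endothelial markers, 7 were on the array and none was tested, 6 of them being well above background on no array. Of 8 markers of macrophages and other leukocytes, 3 were tested. *PTPRC* passed with 0.28, although 1 of its 8 tested probes was lower and 6 were higher and the call was lost without each of the arrays (highest adjusted P 0.115, without array 2), and *CD68* (-0.29) and *CD14* (0.02) did not pass. *CSF1R*, *ITGAM*, *CD163*, *MRC1* and *LAPTM5* were too dim to be tested. The summed signal of the 3 tested was 16936, 14946, 17167 and 15624 in control cells and 22094, 16631, 19227 and 16549 in HMB-treated cells. The largest part of this sum was *PTPRC*, with 11410.6, 9966.68, 12330.8 and 9990.17 in control cells and 15752.5, 11509.6, 14398.4 and 11558.6 in HMB-treated cells.

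Of 7 smooth muscle markers, all 7 were tested and had a mean below 0, with a median of -0.49, and 2 passed. *MYH11*, the smooth muscle myosin, was above background in HMB-treated cells on 3 arrays, so it was let into the test by the control channel alone, and the bound over all arrays was at least 1.81-fold lower. Array 4 was far from the others: the log2 ratios were -0.89, -0.83, -0.54 and -2.45, with a mean of -0.76 without that array, under that bound in size. *MYH11* lost its call without array 1, 2 or 3, with unpaired channels, with no filter on dim probes and in the t-test. No P is given for *MYH11*, and its call carries less weight. *ACTG2*, an actin, had a mean of -0.65, but the direction flipped to 0.31 or 0.17 when lowess was left out, depending on the centring, and the call was lost without array 1, 2 or 3 (highest adjusted P 0.0727, without array 2). The summed signal of this list was 162088, 159877, 153843 and 154216 in control cells and 121827, 104002, 91494 and 110996 in HMB-treated cells. The largest part of this sum was *ACTG2*, with 100740, 97038.5, 100259 and 91703.5 in control cells and 65599.8, 54142.7, 51252.2 and 81604 in HMB-treated cells. The part of these markers in the results was not tested.

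**Figure D3:**
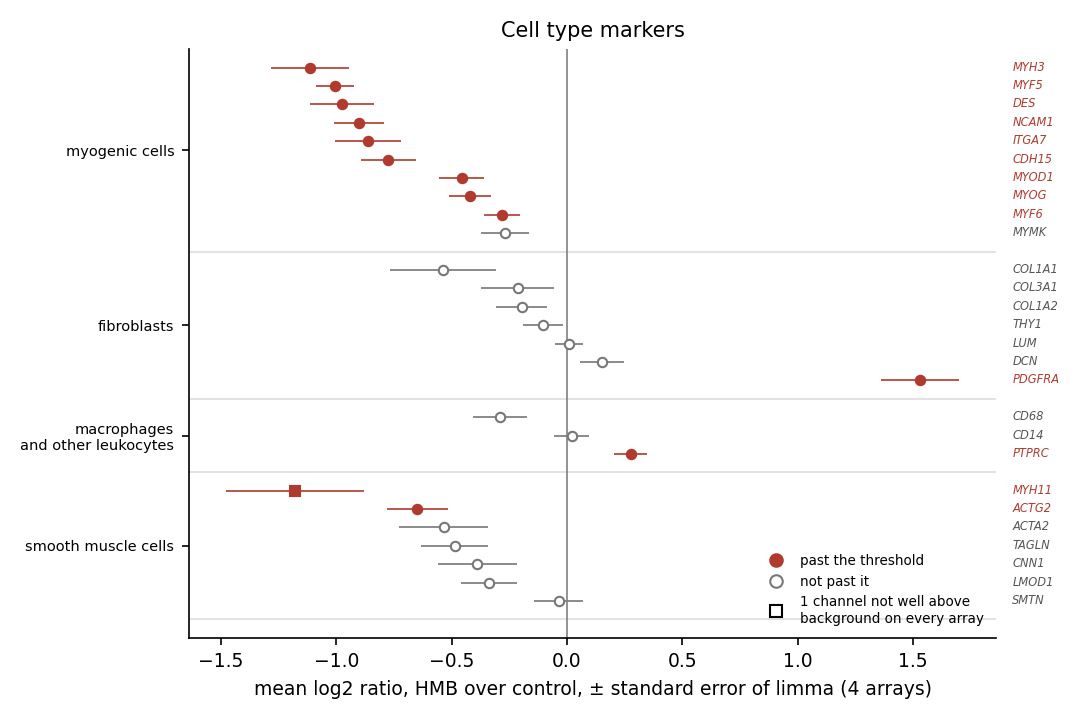
Mean log2 ratio of HMB-treated over control cells, with the SE of limma over 4 arrays, for the tested markers of myogenic cells, fibroblasts, leukocytes and smooth muscle cells; red points passed the threshold and squares mark genes not well above background in 1 channel on every array. The 10 myogenic markers lie below 0 and *PDGFRA* lies at 1.53; *ACTG2* lies above 0 when lowess is left out.

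The other NO synthases had 1 probe each. *NOS1* and *NOS3* were not well above background in either channel on any array, so no ratio is given for them. No comparison of the 3 synthases was therefore possible on these arrays.

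*ARG2*, the mitochondrial arginase, had 6 probes on the plus strand of chromosome 24 (EquCab1), shown because they form 2 stretches that can be set beside each other. The probe nearest the 3′ end, at chr24:13500352-13500411, holds in capitals a stop codon that closes a frame open over the 52 bases before it. The 5 overlapping probes upstream lie within chr24:13497653-13500258, on both sides of an intron, and the 56 bases they share are in capitals in the probe at chr24:13497657-13500258.
ARG2, nearest the 3′ end: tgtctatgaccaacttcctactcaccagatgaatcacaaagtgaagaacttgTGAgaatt
ARG2, across the intron: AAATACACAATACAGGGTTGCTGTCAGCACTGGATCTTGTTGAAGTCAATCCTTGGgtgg

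The *ARG2* probe nearest the 3′ end gave signals of 4393, 4511, 5226 and 5520 in control cells on arrays 1 to 4. In HMB-treated cells it gave 5289, 5718, 6399 and 7108. The HMB signal was above the control signal on each array, although the groups overlapped when arrays were not paired. The log2 ratios were 0.27, 0.34, 0.29 and 0.36, with a mean of 0.32 ± 0.04 (SD, *n* 4; SE 0.06), or 1.25-fold (limma, adjusted P = 0.0150). Over all 6 probes, the ratios of single arrays were between 0.20 and 0.36 and the means between 0.27 and 0.32, with adjusted P between 0.0150 and 0.0239. Both stretches thus gave the same direction on every array. The rise was small: 20.8% of the 9738 genes had a ratio of larger size.

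The call of *ARG2* depended on the arrays and the pairing. Without array 2, no *ARG2* probe passed, with adjusted P between 0.0840 and 0.129 and means between 0.25 and 0.31. Without array 3, none passed either, with adjusted P between 0.0646 and 0.0818 and means between 0.29 and 0.32. Without array 1, 5 of 6 passed, and without array 4 all 6. With the channels taken as unpaired samples, none passed (adjusted P between 0.105 and 0.210), and none reached a minimum of 1.3-fold on the deposited ratios. When lowess was left out all 6 passed with larger means. These were between 0.46 and 0.54 with all spots used for centring, and between 0.31 and 0.40 with spots above background. *ARG1*, the cytosolic arginase known from liver, had 1 probe, which was not well above background on any array.

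**Figure D4:**
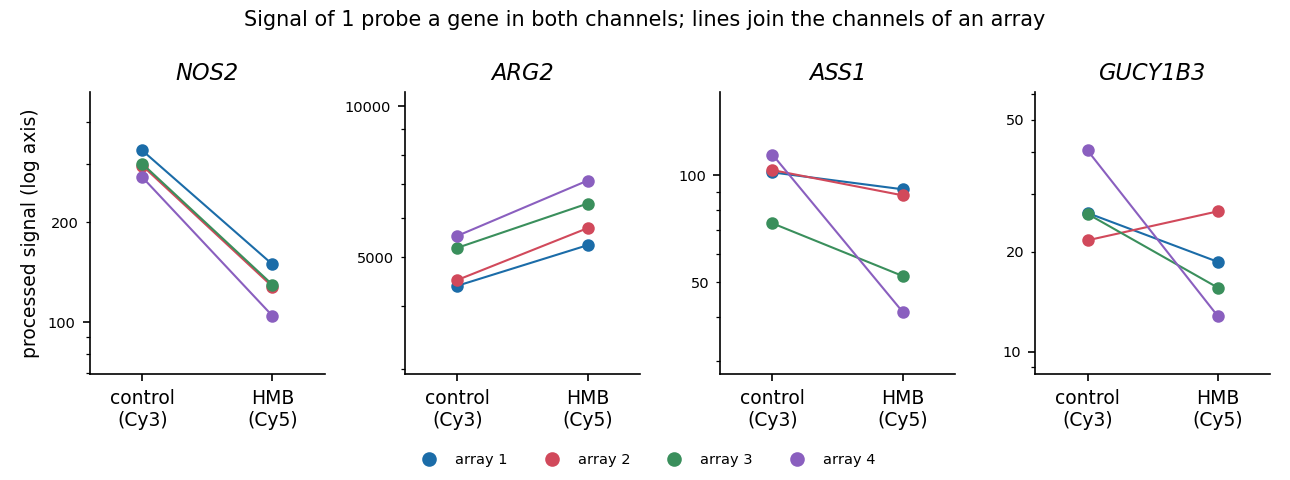
Processed signal on a log axis in control (Cy3) and HMB-treated cells (Cy5) for 1 probe each of *NOS2*, *ARG2*, *ASS1* and *GUCY1B3*; lines join the channels of 1 array. The 4 lines of *NOS2* fall and those of *ARG2* rise, those of *ASS1* fall by unequal amounts, and 1 line of *GUCY1B3* runs against the others.

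*ASS1*, which joins citrulline to aspartate, had 1 probe at chr25:5410942-5411001 (minus strand). Its signal was 102, 103, 73.3 and 114 in control cells and 91.3, 87.8, 52.1 and 41.3 in HMB-treated cells. The log2 ratios were -0.16, -0.24, -0.49 and -1.47. All arrays were below 0, but array 4 stood far from the others. The mean was -0.59 ± 0.60 (SD, *n* 4; SE 0.21) and did not pass (limma, adjusted P = 0.0959). Without array 4 the mean was -0.30, with an adjusted P of 0.0696.

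*ASL*, which releases arginine from argininosuccinate, had 1 probe at chr13:638223-638424 (minus strand). Its log2 ratios were 0.23, -0.10, -0.14 and -0.29, on both sides of 0. The mean was -0.07 ± 0.22 (SD, *n* 4; limma, adjusted P = 0.609), and 0.06 with no lowess and median centring. The 2 enzymes that remake arginine were thus tested on 1 probe each, and neither passed.

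*DDAH1* breaks down asymmetric dimethylarginine, an inhibitor of NO synthases, and had 2 probes on the plus strand that share 13 bases. At chr5:51621391-51621450 the log2 ratios were 0.08, 0.11, -0.01 and -0.00, with a mean of 0.04 ± 0.06 (SD, *n* 4; limma, adjusted P = 0.643). At chr5:51621438-51621497 they were 0.08, -0.02, -0.07 and -0.09, with a mean of -0.02 ± 0.08 (SD, *n* 4; limma, adjusted P = 0.798). Neither passed, and the means of both probes changed sign with the way of centring when lowess was left out, to 0.10 and 0.05 with all spots or -0.05 and -0.10 with spots above background.

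*GUCY1A3* and *GUCY1B3* encode the α and β subunits of soluble guanylate cyclase, both of which the enzyme needs. *GUCY1B3* had 1 probe at chr2:63708256-63708315 (minus strand), well above background in control cells on 4 arrays and in HMB-treated cells on 2. Its signal was 26.2, 21.7, 26.0 and 40.5 in control cells and 18.7, 26.5, 15.6 and 12.8 in HMB-treated cells. The log2 ratios were -0.49, 0.29, -0.74 and -1.66, so array 2 was above 0 and the others were below it. With HMB signals partly at background only a bound holds, of at least 1.44-fold in favour of control cells over all 4 arrays. That bound depended on array 4: without it the mean log2 ratio was -0.31, under the bound in size. The probe was let into the test by the control channel alone and did not pass, except when array 2, the 1 that ran the other way, was left out. No P is given for it, and *GUCY1B3* cannot be called changed or unchanged. With normexp and loess the log2 ratio was -0.17.

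*GUCY1A3* had 2 probes on the minus strand and neither was tested. The probe at chr2:63779090-63779151 was well above background on 2 arrays in each channel. Its log2 ratios were -0.44, -0.40, -0.44 and -0.43, but 2 of the 4 signals of each channel were near background, so their closeness is not a measure of precision. The probe at chr2:63779152-63787113 was not well above background on any array, and no ratio is given for it.

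The genes around these enzymes were taken as 9 lists of 100 genes, of which 7 were not found on the array and 18 were not tested. Of the 75 tested, 21 (28%) passed, 5 higher and 16 lower, beside 22.6% of all genes, and their median mean ratio, as log2, was 0.04. Some of them, *GCHFR*, *PRKG1* and *SOD2* among others, are in the study's own lists and are not independent evidence. Of the 21, 19 are described singly, and 7 of these still passed without any 1 array. *SLC7A7*, *SMS*, *GATM* and *NPR3* did so with both channels well above background on all arrays. *NPPC*, *PDE2A* and *IL1R1* were let into the test only by the channel in which they were higher, so no P is given for them and their calls carry less weight. With unpaired channels 9 of the 75 genes passed, and in the t-test 5. With both channels required above background, 67 genes were tested and 18 passed, 4 higher and 14 lower. The other 12 lost the call without at least 1 array, among them 3, *GCHFR*, *SPR* and *NOSIP*, without each of the arrays in turn. Without arrays 1, 2, 3 and 4, the number of genes past the threshold was 17, 9, 10 and 17. When lowess was left out and all spots were used for centring, 23 of 35 calls were higher, in place of 5 of 21. With centring on spots well above background, an analysis added after the data had been seen, 5 of 18 were higher, so the split between higher and lower depended on the centring.

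Among the cofactor and partner genes of NO synthases, 14 of 17 genes were tested and 6 passed, 3 higher and 3 lower, with a median of 0.15. The count fell to 0 of 14 without array 2, without array 3 and with the 1.3-fold minimum. Higher were *SPR*, which makes the cofactor tetrahydrobiopterin (mean 0.32 ± 0.16, adjusted P = 0.0336), and *NOSIP*, which binds NOS3 (0.23 ± 0.07, adjusted P = 0.0441). *GCHFR*, the feedback regulator of tetrahydrobiopterin synthesis, was also higher (0.20 ± 0.02, adjusted P = 0.0485). All 4 probes of *SPR* passed, but without array 3 the adjusted P was 0.135 for *SPR* and 0.165 for *NOSIP*, and without array 2 it was 0.183 for *GCHFR*. *GCH1*, the first enzyme of that synthesis, did not pass, with array ratios between -0.07 and 0.68. The chaperone HSP90 binds NO synthases, and 2 of its genes were lower, but not under each normalisation. *HSP90AB1* had a mean of -0.37 (adjusted P = 0.0169), on 5 of 6 probes, and turned to 0.51 or 0.36 without lowess. *HSP90AA1* had a mean of -0.31 (adjusted P = 0.0475) and passed in neither analysis without lowess.

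Among genes of arginine transport and the rest of the urea cycle, 4 of 9 were tested and 1 passed, with a median of 0.07. *SLC7A7*, a subunit of the exporter of cationic amino acids, was lower on all 3 of its probes. Its log2 ratios were -0.44, -0.53, -0.65 and -0.61, with a mean of -0.56 ± 0.09 (SD, *n* 4; limma, adjusted P = 0.00398). Every array was below 0 by more than 4 times the SD. It passed without each array in turn but not with unpaired channels (adjusted P = 0.0545). *SLC7A1*, the main importer of arginine (0.14), and *SLC3A2*, the partner subunit of *SLC7A7* (0.25), did not pass.

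Ornithine, the product of arginase, leads to polyamines and proline, and arginine also serves creatine synthesis. Of 14 genes 12 were tested and 4 passed, all lower, with a median of 0.05. *GATM* and *GAMT* encode the successive enzymes of creatine synthesis. *GATM* had log2 ratios of -0.48, -0.54, -0.84 and -1.03 on arrays 1 to 4 (mean -0.72 ± 0.26, adjusted P = 0.00722), and both of its probes passed, but the brighter 1 not in the t-test or with no filter on dim probes. *GAMT* had -0.15, -0.24, -0.39 and -0.63 (mean -0.35 ± 0.21, adjusted P = 0.0386, and 0.131 without array 3). All 4 arrays were thus below 0 for each enzyme. *SMS*, which makes spermine, had a mean of -0.50 ± 0.16 (adjusted P = 0.00965) and did not pass with unpaired channels or in the t-test, while *SRM*, which makes spermidine, at 0.22, and *ODC1*, the first enzyme of polyamine synthesis, at 0.11, did not pass. *AZIN1*, which relieves the inhibition of ODC1, had a mean of -0.23 ± 0.04 (adjusted P = 0.0343, and 0.154 without array 2). When lowess was left out *AZIN1* had -0.05 or -0.20, depending on the centring, and did not pass with either. *OAT*, which takes ornithine towards proline, did not pass (0.12).

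No gene of methylarginine formation and removal passed in the main fit. Without array 4, 1 passed as higher. When lowess was left out, 3 passed as higher with all spots used for centring and 0 with spots above background. Of 9 genes 8 were tested, with a median of 0.06, and the values lay between -0.14 for *PRMT2* and 0.35 for *CARM1*, both of them methyltransferases. *DDAH2*, the relative of *DDAH1*, had a mean of -0.03.

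Receptors of natriuretic peptides also make cGMP. Of 11 genes in a list of them, their ligands, other cyclases and the remaining soluble cyclase subunits, 8 were tested and 2 passed, both lower, with a median of -0.06. *NPR3*, the receptor that clears these peptides, had log2 ratios of -0.86, -0.66, -0.52 and -1.09 (mean -0.78 ± 0.25, SD, *n* 4; limma, adjusted P = 0.00531). Both of its tested probes passed, but *NPR3* did not pass with unpaired channels or in the t-test (highest adjusted P 0.159). *NPPC*, which encodes C-type natriuretic peptide, was well above background in control cells on 4 arrays and in HMB-treated cells on none. On the signals normalised between arrays it was at least 1.71-fold lower, with a log2 ratio of -0.24 after normexp. With both channels required above background it was not tested, and 1 of 7 genes passed. The cyclase receptors *NPR1* (-0.37) and *NPR2* (0.01) did not pass.

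Of 9 targets of cGMP 5 were tested and 1 passed, with a median of -0.16. *PPP1R12A*, the targeting subunit of myosin phosphatase, had a mean of -0.38 ± 0.12 (limma, adjusted P = 0.0143, and 0.0518 without array 3). *PRKG1*, the cGMP-dependent kinase, had log2 ratios of -0.42, -0.29, -0.44 and 0.20 and did not pass (adjusted P = 0.189). Without array 4, where *PRKG1* ran the other way, 2 of the 5 genes passed, both lower, and without array 2 or array 3 the count was 0.

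Of 11 genes of cGMP phosphodiesterases and their subunits, *PDE6D* among them, 7 were tested and 4 passed, with a median of -0.25. With both channels required above background 3 of 4 passed, with unpaired channels 1 of 7 and in the t-test 0 of 7. *PDE2A*, a phosphodiesterase that cGMP itself activates, was well above background in control cells on 4 arrays and in HMB-treated cells on 1. On the signals normalised between arrays, the bound over all 4 arrays was at least 1.81-fold lower in HMB-treated cells. The log2 ratio after normexp was -0.33. The log2 ratios of arrays 1 to 4 were -0.58, -1.28, -1.10 and -1.15. Array 1, with the highest HMB signal (23.1), was under that bound in size. *PDE5A*, which is specific for cGMP, had log2 ratios of -0.38, -0.13, -0.48 and -0.91, with a mean of -0.47 ± 0.33 (adjusted P = 0.0411, and 0.122 without array 3). *PDE10A*, which hydrolyses both cyclic nucleotides, had a mean of -0.36 ± 0.22 (adjusted P = 0.0401, and 0.122 without array 3). In contrast, *PDE9A*, which also prefers cGMP, had 0.51, 0.33, 0.19 and 0.83, with a mean of 0.46 ± 0.27 (adjusted P = 0.0295, and 0.0815 without array 1). The direction thus differed within the list, 1 of the 3 lower genes resting on a bound.

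NO is removed by haem proteins, and superoxide, with which it reacts, by dismutases. Of 9 genes 6 were tested and 1 passed, with a median of 0.12. *MB*, the myoglobin of muscle, had log2 ratios of -0.24, -0.61, -0.51 and -1.15 (mean -0.63 ± 0.38, limma, adjusted P = 0.0266, and 0.0782 without array 2), and it is itself a gene of muscle. *CYGB*, the cytoglobin, had 0.78, 0.32, 0.03 and 0.87 and did not pass (adjusted P = 0.0554). The probes of *SOD2*, the mitochondrial dismutase, did not give the same answer: its brightest probe, at 0.14, did not pass, whereas 6 of its 10 probes passed as higher.

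*NOS2* is known to be induced through receptors of interferon gamma, interleukin 1, tumour necrosis factor and endotoxin. All 11 genes of that list were tested and 2 passed, 1 in each direction, with a median of 0.09. With both channels required above background 1 of 10 passed, as lower, and with no filter on dim probes 0 of 11 passed. *IL1R1*, the interleukin 1 receptor, was well above background in HMB-treated cells on 4 arrays and in control cells on 2. On the signals normalised between arrays, the bound over all 4 arrays was at least 1.72-fold higher. The log2 ratios were 1.09, 0.67, 0.38 and 1.09. Without array 1 their mean was 0.71, under that bound in size. *IL1R1* did not pass with normexp (log2 ratio 0.23), with unpaired channels, with no filter on dim probes or in the t-test. It was not tested with both channels required above background. *IFNGR1* (-0.05), *TNFRSF1A* (0.17), *TLR4* (0.23), *IRF1* (-0.09) and the NF-κB genes *NFKB1* (0.12) and *RELA* (0.16) did not pass. The part of these genes in the fall of *NOS2* was not tested.

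**Figure D5:**
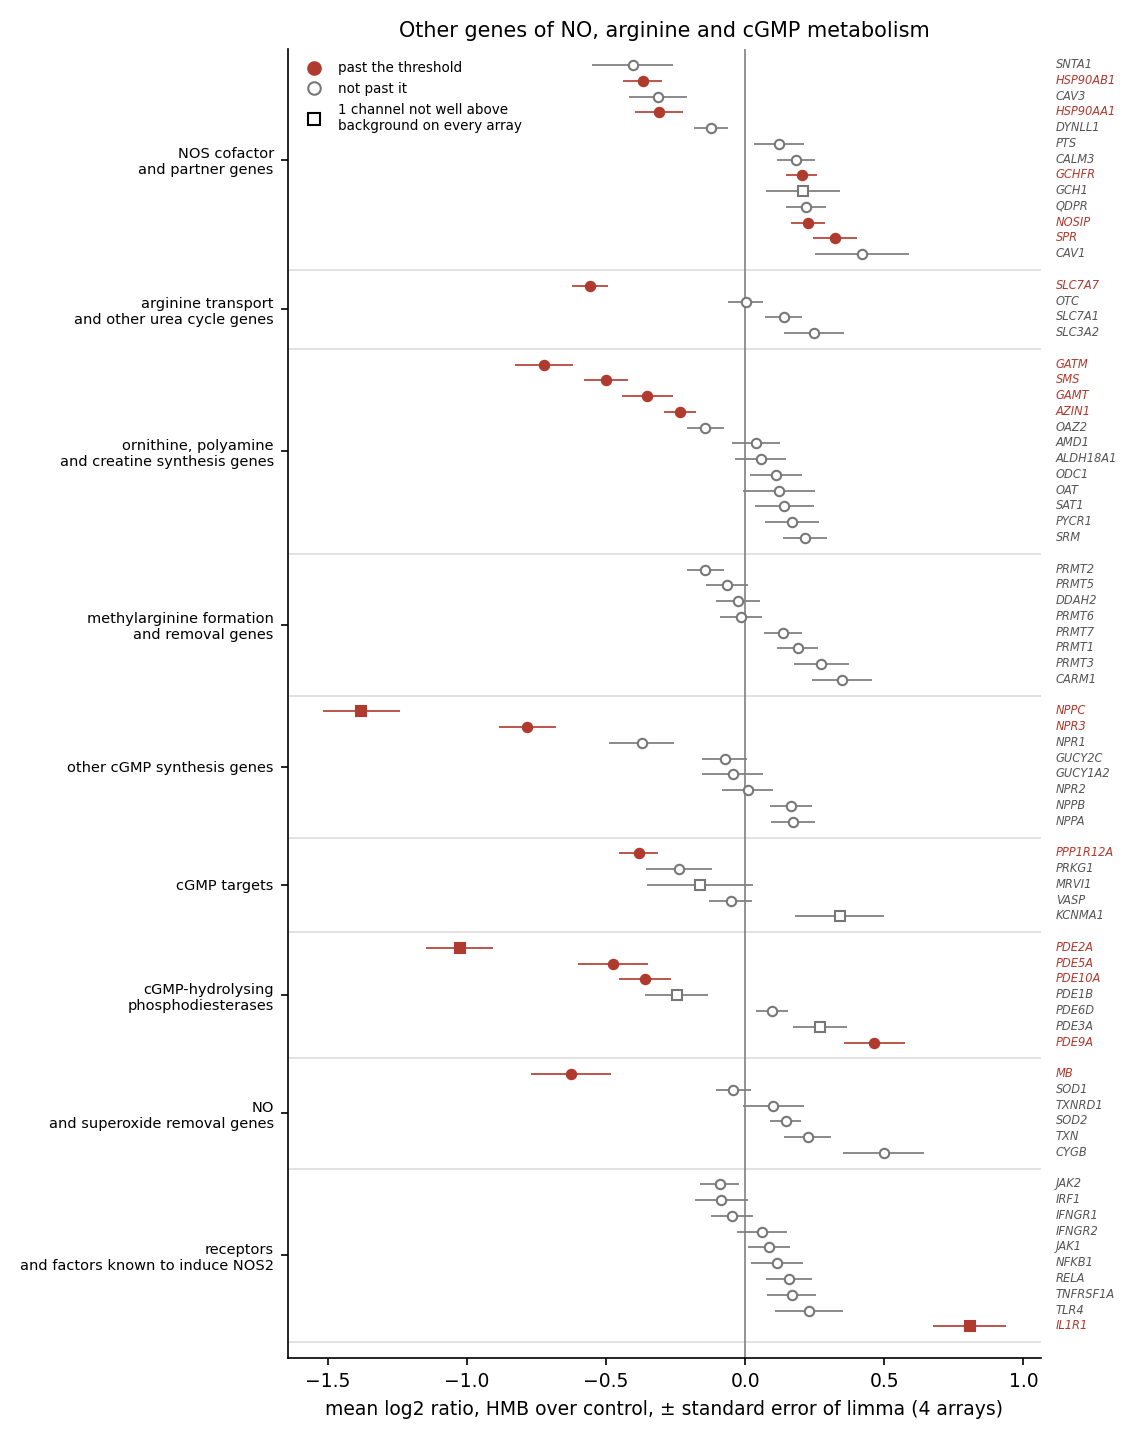
Mean log2 ratio of HMB-treated over control cells, with the SE of limma over 4 arrays, for 73 tested genes of 9 lists around NO, arginine and cGMP; red symbols are 19 genes past the threshold and squares are genes not well above background in 1 channel on every array, whose plotted mean is no bound. Of the red symbols 14 lie below 0 and 5 above it; without lowess *HSP90AB1* lies above 0.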

How the data were processed

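The authors scanned 4 two-colour arrays on 1 slide, with 1 scan time, so no batch could be tested, and deposited the output of Feature Extraction 10.10.1.1. The deposited log10 ratio of Cy5 over Cy3 had been background-subtracted and normalised by the authors by linear and lowess dye normalisation, and the processed intensity of each channel was deposited with it, as were raw intensity values and marks of 0 or 1 for background, outlying and saturated spots. The deposited summary table held the same log10 values (largest difference 0).

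Multiplication by 3.32 turned them into log2 ratios. Control spots and the 11 to 32 spots of an array marked non-uniform or outlying were left out, and no spot was saturated. The median signal was 3.16 to 3.82 times the background in Cy3 and 4.68 to 5.85 times in Cy5. Gene names came from the files for 24932 probes, from RefSeq gene numbers for 1681, from RefSeq accessions for 436, and from descriptions or synonyms for 44 and 13. Testing needed values on 3 arrays and 1 channel marked as well above background throughout. Intercept-only models were fitted in limma 3.58.1 (R 4.3.3), two-sided. An exact test that turns the sign of whole arrays has 8 outcomes and a smallest P of 0.125, so it could not pass. The brightest tested probe, by mean log2 intensity, stands for its gene. Tables and plots were made with the data.table package (1.17.8), Python 3.11.15, numpy 2.4.6, pandas 2.3.3 and matplotlib 3.10.9. The fit was tested on simulated ratios.

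The members and lists were chosen with earlier results of these data known. All 10 members are named, and in each of the 9 pathway lists the genes past the threshold, at most 6 of largest size; 2 list genes, kept in the counts, and 1 sequence are not reported here. The 5 genes nearest to *NOS2* are also named. Other genes named as not passing, and the markers singled out, were picked with their values in view. The lists were NOS cofactor and partner genes, arginine transport and other urea cycle genes, ornithine, polyamine and creatine synthesis genes, methylarginine genes, other cGMP synthesis genes, cGMP targets, phosphodiesterases, NO and superoxide removal genes, NOS2-inducing genes, and markers of myogenic, fibroblast, endothelial, leukocyte and smooth muscle cells.

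The channels of an array share its number in the labels, and the deviations of the channels from their group means correlated by 0.59, 0.64, 0.45 and 0.63 on arrays 1 to 4, across probes, which are not independent. The channels of an array also share its spots, so this correlation cannot show that both came from the same colt, which the sources do not say. The channels were treated as pairs because the ratio is taken within an array. Alternatives were normexp (offset 50) with loess, no lowess, a t-test on each probe alone, a robust prior with an intensity trend, separate channels (unpaired, or with the array as block), dim probes let in, only probes with both channels above background, the summary table, marked spots let in, a minimum of 1.3-fold, gene means over all probes, and leaving out each array, with 2 values then required.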

Additional observations from a re-analysis of the deposited data

Results flagged for a closer look

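In 1 of 53 groups of array values looked at, 1 array stood apart from the others. The log2 ratio of *PTPRC*, a leukocyte marker, was 0.47 on array 1 and 0.21, 0.22 and 0.21 on arrays 2, 3 and 4. The gap to the nearest array was 0.938 of the whole range, above Dixon's 95% critical value. Chance gives about 1 such group in 20. *PTPRC* did not pass the threshold of limma without any 1 of the arrays, with adjusted P between 0.0551 and 0.115.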

How the results depend on the processing

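For 53 single values, 841 comparisons with another setting were made: 663 kept direction and side of the threshold, 170 lost the call, 1 gained it and 7 turned sign. *NOS2*, *CDO1* and *IL32* kept both in each setting. All sign changes came with lowess left out. With ratios centred on the median of all spots, *ASL* was 0.0564, 1 *DDAH1* probe 0.0518, *HSP90AB1* 0.51 and *ACTG2* 0.31. That centring moved the median of the tested probes from 0.02 to 0.15. A centring on spots well above background in both channels was therefore added, chosen after seeing the data. It gave 0.01 for that median, and -0.0514 for the other *DDAH1* probe, 0.36 for *HSP90AB1* and 0.17 for *ACTG2*. The cause was not tested.

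Of all probes 6257 were called, 49.1% of them higher. Without lowess the count was 10969 with 8451 higher (77.0%), and 7163 with 47.9% higher with the added centring. It was 768 with a t-test on each probe alone, 2569 (34.7% higher) with no replicate block, 3690 with no filter, 3863 with the 1.3-fold minimum, and 2564 to 4981 without 1 array. Of 16 member probes 11 were called, but 5 with no replicate block, 5 with the 1.3-fold minimum and 5 to 11 without 1 array. With no filter 12 of 29 were called, the added 1 being the dim *GUCY1A3* probe whose closeness between arrays is not a measure of precision. Of the list genes 21 were called, 35 without lowess (18 with the added centring), 5 with the t-test, 9 with no replicate block, 11 with no filter, 12 with the 1.3-fold minimum, and 9 to 17 without 1 array. The array as replicate block gave 6257, 11 and 21 and changed no call, since the ratio already pairs the channels. *GUCY1B3* has no value with both channels above background, where it is not tested. Signal over background limits the dim genes: 13 of the 29 probes could not be tested.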
